A study of Mus musculus with 48 samples.

Results

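Genes that write, erase and read cytosine methylation were followed through the ribosome-associated and total RNA of mouse cortex and of its synapses at 3 ages. The set held 7 of the 48526 genes of the count table: the methyltransferases Dnmt1 and Dnmt3a, the oxidases Tet1, Tet2 and Tet3, and the readers Mbd2 and Uhrf2. They were chosen by name after their levels in each fraction and age had been seen. The fold changes of the 7 genes are therefore a description, with no p-value of their own, and it is only stated whether the fit across all genes called them. All 7 passed the filter on low counts in every fit.

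The series comprised 48 libraries from 12 male wild-type C57BL/6JRj mice, 4 per age, with 4 fractions taken from the cortex of each mouse. Mice 187 to 190 were 3 weeks old (3w) and mice 195 to 198 were 18 months old (18m), or 18 to 19 months by the protocol. Mice 191 to 194 form the adult group (5m), labelled 6 months in the sample records and 5 months in the protocol. The fractions were total homogenate (input_TH), synaptosomes purified on a discontinuous sucrose gradient (input_SYN), and the RNA of each that pelleted through a sucrose cushion after lysis with cycloheximide, which holds ribosomes on their transcripts (SC_TH and SC_SYN). The labels name no transgene, deletion or treatment. Synaptosomes are pinched-off nerve endings with attached postsynaptic membrane, and such preparations also hold glial fragments. Pelleting through a cushion enriches ribosomes but does not show that a transcript was being translated.

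In background, Dnmt3a places methyl groups on unmethylated DNA and also on CA dinucleotides of maturing neurons, while Dnmt1 copies CpG methylation to the new strand after replication. Tet enzymes oxidise 5-methylcytosine to 5-hydroxymethylcytosine, which is abundant in neurons, and Tdg excises the further oxidised bases. Mbd2 binds methylated CpG and recruits the NuRD repressor complex, and Uhrf2 is a reader of 5-hydroxymethylcytosine.

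Total counts ran from 1780267 to 18590040 per library. In SC_TH they ran from 3058278 to 7119395 at 3w, 5992223 to 13484631 at 5m and 9612408 to 15423546 at 18m. In SC_SYN they ran from 5415274 to 6132944 at 3w, 8328535 to 14557582 at 5m and 5341263 to 18590040 at 18m. In input_SYN they ran from 1780267 to 4519629 at 3w, 2613680 to 3840102 at 5m and 2843173 to 7879536 at 18m. Depth in the pellets and in input_SYN thus differed between ages, and its part in the age changes was not tested. Over the 48 libraries the lowest count of a gene in the set was 20 (Tet2), followed by 26 for Tet1, 30 for Uhrf2 and 37 for Mbd2, whereas Dnmt3a had 240 to 3786 counts. Levels are given as CPM, counts scaled to a common library total, on 1 TMM scale over all libraries. TMM sets libraries to a common level of most genes. The neuronal, glial and nuclear marker lists were detected in every fraction, with no neuronal, glial or nuclear marker at 0 in any group of libraries. The RNA was bulk, so that fewer cells of a type and less RNA per cell cannot be told apart.

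The genes lie apart in the genome (GRCm38). Dnmt3a spans 3806007 to 3914443 on the plus strand of chromosome 12. Dnmt1 is at 20907209 to 20959888 on chromosome 9, Tet1 at 62804570 to 62908996 on chromosome 10, Tet2 at 133463679 to 133545139 on chromosome 3 and Tet3 at 83362373 to 83459084 on chromosome 6, each on the minus strand. Mbd2 is at 70568189 to 70626131 on chromosome 18 and Uhrf2 at 30030513 to 30093722 on chromosome 19, both on the plus strand. Counting ignored strand, so reads of Dnmt3a and of its antisense gene Dnmt3aos cannot be told apart over the 133 exonic bases they share, which are 0.799% of the Dnmt3a exons.

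A single count per gene pools the transcripts of all its starts. Dnmt3a has an upstream start and an internal start, known as the start of a shorter isoform, and the 2 stretches are printed because the Dnmt3a values join transcripts from both. They run from 200 to 21 bases before the respective start, at chr12:3806780-3806959 and chr12:3891544-3891723 on the plus strand (RefSeq, GRCm38.p6). Capitals mark CpG dinucleotides, the substrate of these enzymes.

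Dnmt3a upstream start: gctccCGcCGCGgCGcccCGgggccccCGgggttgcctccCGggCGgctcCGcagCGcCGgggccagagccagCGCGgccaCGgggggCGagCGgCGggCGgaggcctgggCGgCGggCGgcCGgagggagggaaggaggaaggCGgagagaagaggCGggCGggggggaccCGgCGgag

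Dnmt3a internal start: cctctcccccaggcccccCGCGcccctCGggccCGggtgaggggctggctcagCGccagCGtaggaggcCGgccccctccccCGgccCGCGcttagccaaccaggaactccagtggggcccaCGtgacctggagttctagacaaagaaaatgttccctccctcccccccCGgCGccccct

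The upstream stretch held 27 CpG in 180 bases and the internal stretch 13. Over the full promoter windows, from 250 bases before to 50 bases after a start, the Dnmt3a windows held 46 and 47 CpG at the upstream starts and 18 at the internal start. The median of all 32851 RefSeq promoter windows was 7 CpG. The Tet2 window held 57 CpG, a count reached by 0.152% of all windows, against 28 for Uhrf2, 22 for Tet3 and 17 for Tet1. The 3 Dnmt1 windows held 2, 12 and 33. The counts say nothing of methylation, which was not measured. RefSeq windows were matched for 6 of the 7 genes, and Mbd2 is the remaining gene.

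Divided by exonic length, Dnmt3a had the highest level of the set at 3w in all 4 fractions. In input_TH it stood at 13.9 ± 0.403 CPM per kb (SD, n = 4), followed by Tet3 with 11.3 ± 0.71 and Dnmt1 with 7.29 ± 0.289. Mbd2 (4.86 ± 0.377 CPM per kb) and Uhrf2 (4.54 ± 0.145) overlapped between mice. Tet2 (3.8 ± 0.332) and Tet1 (1.99 ± 0.202) were lowest and did not overlap with their neighbours. At 5m Tet3 (9.85 ± 0.385 CPM per kb) and Dnmt3a (9.76 ± 0.285) overlapped in input_TH. In SC_SYN, the ribosome pellet of synaptosomes, Mbd2 (7.72 CPM per kb) and Dnmt1 (7.01) stood first at 5m, with Tet3 at 5.71, Dnmt3a at 5.19, Uhrf2 at 3.55, Tet2 at 0.711 and Tet1 at 0.452. Dnmt3a overlapped there with Tet3, and Mbd2 with Dnmt1.

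**Figure D1:**
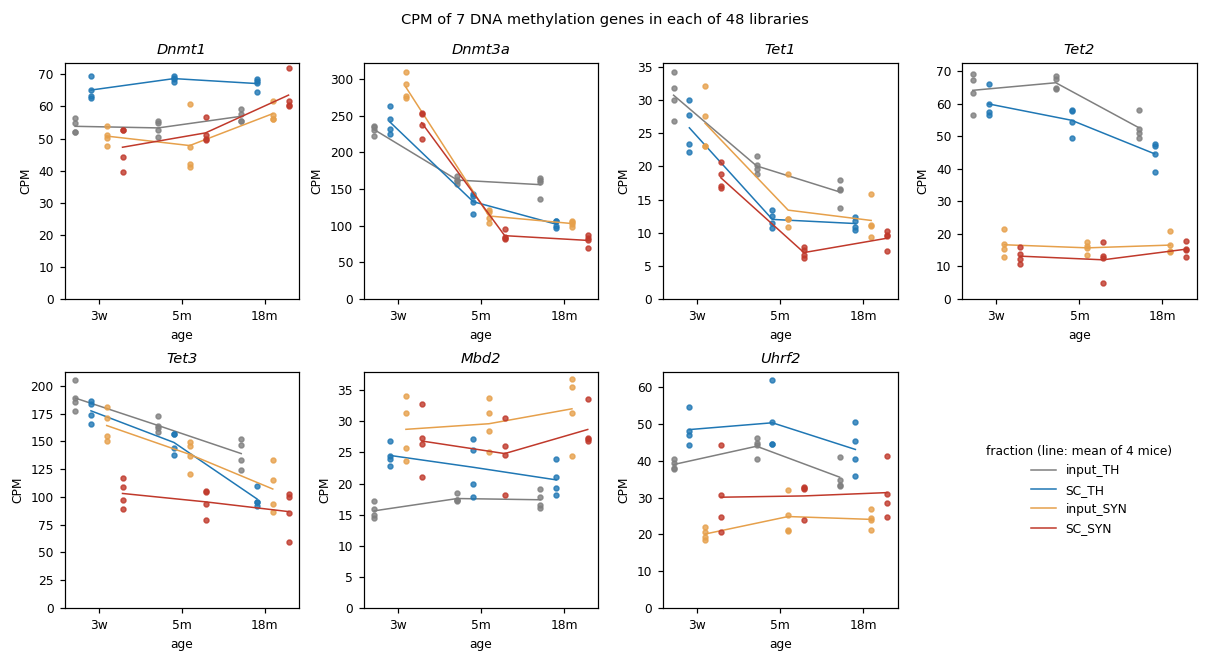
Level of each of the 7 genes in CPM (TMM scale) in every library, by fraction and age, with 1 point per mouse. Dnmt3a and Tet1 at 5m lie below 3w in all 4 fractions, and Tet2 lies lower in both synaptosomal fractions than in both homogenate fractions.

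The first comparison asks how the writers and erasers differed between young and adult cortex. Dnmt3a fell in all 4 fractions. In input_TH it measured 231, 222, 236 and 235 CPM at 3w and 168, 161, 163 and 157 CPM at 5m, and in SC_TH 263, 245, 225 and 232 against 116, 143, 140 and 132 CPM. In input_SYN it measured 310, 277, 294 and 275 against 119, 110, 121 and 103 CPM, and in SC_SYN 218, 254, 252 and 238 against 83.2, 81.6, 95.6 and 85 CPM. Every 5m library lay below every 3w library of its fraction. The log2 fold changes (5m minus 3w, ± SE) were -0.51 ± 0.057 in input_TH, -0.86 ± 0.077 in SC_TH, -1.38 ± 0.095 in input_SYN and -1.52 ± 0.11 in SC_SYN, which are 1.43-fold, 1.81-fold, 2.61-fold and 2.87-fold lower levels. The call was kept in each fraction whichever of the 8 mice was left out, with values between -0.54 and -0.5 in input_TH, -0.91 and -0.8 in SC_TH, -1.42 and -1.33 in input_SYN, and -1.57 and -1.5 in SC_SYN.

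Tet1 fell in the same 4 fractions. It measured 34.2, 26.8, 30.1 and 31.9 CPM at 3w and 18.9, 19.6, 20.2 and 21.6 CPM at 5m in input_TH, and 27.7, 30.0, 22.2 and 23.4 against 13.4, 12.5, 11.4 and 10.7 CPM in SC_TH. In input_SYN it measured 27.6, 23.1, 32.2 and 23.1 against 10.8, 12.0, 18.8 and 12.0 CPM, and in SC_SYN 18.8, 20.6, 16.7 and 17.0 against 6.16, 6.61, 7.88 and 7.32 CPM. The ages did not overlap in any fraction. The log2 fold changes were -0.62 ± 0.088, -1.09 ± 0.12, -1.02 ± 0.21 and -1.43 ± 0.16 in that order, or 1.54-fold, 2.13-fold, 2.03-fold and 2.69-fold lower levels. In input_SYN the call was lost without mouse 191 or mouse 194, with values between -1.22 and -0.92 over the 8 fits that left out a mouse.

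Tet3, the oxidase with the highest level in the homogenate, was called lower in both homogenate fractions. Its input_TH values were 189, 177, 185 and 205 CPM at 3w against 158, 173, 164 and 162 CPM at 5m. The log2 fold change was -0.21 ± 0.063 there and -0.25 ± 0.075 in SC_TH. Both calls were lost without some mice (without 187, 189, 190, 191, 193 or 194 in input_TH, and without 187, 190, 191 or 194 in SC_TH), with values of -0.24 to -0.17 and -0.29 to -0.21. Its values in synaptosomes were -0.29 ± 0.12 in input_SYN and -0.16 ± 0.16 in SC_SYN, neither called. Tet2 was not called in any fraction (0.04, -0.12, -0.11 and -0.16), nor were Dnmt1 (-0.02, 0.08, -0.12 and 0.09), Mbd2 (0.16, -0.12, 0.02 and -0.15) and Uhrf2 (0.17, 0.06, 0.29 and -0.02).

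Over the set, 3 of 7 genes were called lower in input_TH where 11.8% of all tested genes were called in either direction, 3 of 7 in SC_TH (18.0% of all), 2 of 7 in input_SYN (3.22%) and 2 of 7 in SC_SYN (8.05%). The choice of the genes rests on these same values, and nothing is read from the shares. The markers of myelinating oligodendrocytes were lower at 5m as well. All 6 genes of that list fell in each of the 4 fractions, with a median log2 fold change of -1.37 in input_TH, -1 in SC_TH, -1.44 in input_SYN and -1.24 in SC_SYN. Their summed level ran from 5070 to 6310 CPM at 3w and from 2010 to 2290 CPM at 5m in input_TH, and from 8090 to 9770 against 3310 to 3590 CPM in SC_SYN. Of the 4 genes of oligodendrocyte precursors, 4 fell in input_TH, 3 in SC_TH, 2 in input_SYN and 2 in SC_SYN. The summed level of 6 microglial markers was 455 to 530 CPM at 3w and 754 to 902 CPM at 5m in SC_SYN. It was 279 to 370 against 426 to 595 CPM in input_SYN and 206 to 241 against 240 to 314 CPM in SC_TH. In input_TH it was 167 to 186 against 160 to 179 CPM. Of 5 erythrocyte markers, 5 fell in input_TH (median -1.05) and 4 in SC_TH (-0.69), and none was called in synaptosomes. Of 6 astrocyte markers, 3 fell in input_TH, 3 in SC_TH, 1 in input_SYN and 0 in SC_SYN. Of 6 nuclear markers, 1 fell in input_TH and 4 in SC_TH (median -0.4), and none was called in synaptosomes. The part of these cells and of nuclear RNA in the Dnmt3a and Tet1 values was not tested.

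**Figure D2:**
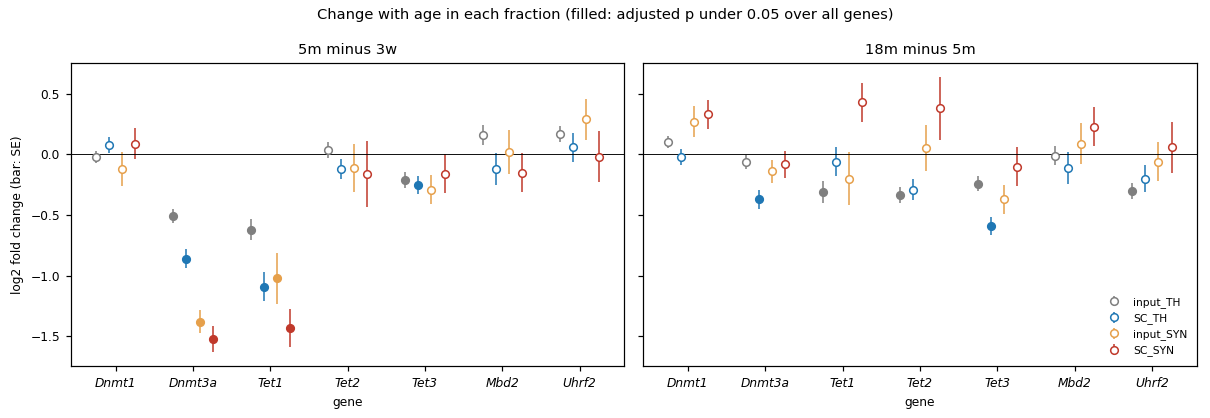
Log2 fold change of each gene between successive ages in each of the 4 fractions, with bars of 1 standard error and filled points where the fit across all genes called the gene. Dnmt3a and Tet1 are called lower at 5m than at 3w in every fraction, and no gene is called between 5m and 18m in either synaptosomal fraction.

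Between 5m and 18m the called changes were all in the homogenate, and each was a fall. In input_TH Tet2 measured 64.5, 67.5, 68.6 and 64.9 CPM at 5m and 58.0, 49.3, 52.1 and 50.9 CPM at 18m (log2 fold change -0.33 ± 0.066). Uhrf2 measured 44.7, 46.1, 40.6 and 44.4 against 33.2, 41, 33.3 and 34.7 CPM (-0.30 ± 0.068). Tet1 (-0.31 ± 0.092) and Tet3 (-0.24 ± 0.064) fell as well. The ages did not overlap for Tet1, Tet2 and Tet3, and overlapped for Uhrf2. Each Uhrf2 library at 5m lay above each at 3w (37.9 to 40.5 CPM), and those at 18m overlapped with 3w. The calls of Tet2 and Uhrf2 were kept whichever mouse was left out. That of Tet1 was lost without 192, 193, 194, 196 or 198 (-0.36 to -0.24 over the 8 fits, and -0.16 with trends on GC content and length removed) and that of Tet3 without 192, 194 or 197 (-0.28 to -0.19). In a fit of all 48 libraries together, which called 183 genes, none of the 4 was called. Dnmt3a (-0.06), Dnmt1 (0.10) and Mbd2 (-0.01) were not called. The Dnmt1 libraries ran from 50.5 to 55.3 CPM at 5m and from 55.5 to 59.1 CPM at 18m. Here and below, ages that do not overlap without a call are a description. The share of all genes whose ages do not overlap is not given. At the same step in input_TH, 4 of 5 markers of inhibitory neurons rose (median of the list 0.31), as did 3 of 6 of oligodendrocytes (0.20) and 2 of 4 of their precursors (0.31), and 2 of 5 endothelial markers fell (-0.28). The part of these cells in the result was not tested.

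In SC_TH, Tet3 fell from 138, 157, 157 and 144 CPM at 5m to 95.0, 110, 95.5 and 92.2 CPM at 18m. The log2 fold change was -0.59 ± 0.074 and the call was kept without any 1 mouse. Dnmt3a fell from 116, 143, 140 and 132 to 96.4, 106, 99.6 and 106 CPM (-0.37 ± 0.077), a call lost without 192, 193, 195, 197 or 198 (-0.42 to -0.33). Neither gene overlapped between the ages. Tet2 was not called (49.5 to 58.1 CPM at 5m and 39.1 to 47.7 CPM at 18m, -0.29 ± 0.084). The summed level of 6 nuclear transcripts in SC_TH was 10500 to 13800 CPM at 3w, 7520 to 11100 at 5m and 5320 to 6360 at 18m, and 5 of the 6 fell between 5m and 18m. Its part in the SC_TH values was not tested.

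In the synaptosomal fractions no gene of the set was called between 5m and 18m. The largest values in SC_SYN were 0.43 ± 0.16 for Tet1, 0.38 ± 0.26 for Tet2 and 0.33 ± 0.12 for Dnmt1, and in input_SYN -0.37 ± 0.12 for Tet3 and 0.27 ± 0.13 for Dnmt1. Dnmt1 in SC_SYN measured 49.9, 51.0, 49.4 and 56.7 CPM at 5m and 71.9, 61.8, 60.4 and 60.0 CPM at 18m, without overlap. Over the set, 4 of 7 genes were called in input_TH (15.5% of all tested genes), 2 of 7 in SC_TH (2.17%), 0 of 7 in input_SYN (0.139%, with 1214 genes at an unadjusted p under 0.05) and 0 of 7 in SC_SYN (0.014%, 2473 genes). DESeq2 gave 0 for both synaptosomal fractions, and the fit of all 48 libraries called 1 gene, Dnmt1, in SC_SYN.

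The second comparison sets the synaptosomes against the homogenate of the same age, first for the ribosome pellets. SC_SYN over SC_TH is the ratio that the study uses for translation at synapses. Its sign depends on the scaling. When libraries were scaled by their size alone, the median of all tested genes moved by -0.65 to -0.53 on the log2 scale over the 6 comparisons of SYN with TH, and the values that change sign are named with them. With TMM that median was -0.18 to -0.04.

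Tet2 had the largest difference. In SC_TH it measured 59.9, 65.9, 57.3 and 56.4 CPM at 3w, 57.6, 58.1, 54.2 and 49.5 at 5m, and 44.5, 46.9, 47.7 and 39.1 at 18m. In SC_SYN the values were 13.8, 15.9, 10.7 and 12.1 CPM at 3w, 4.81, 13.2, 17.5 and 12.5 at 5m, and 15.4, 15.0, 17.8 and 12.9 at 18m. Every synaptosomal library lay below every homogenate library of its age, by log2 values of -2.14 ± 0.20, -2.16 ± 0.19 and -1.50 ± 0.19. The input libraries of Tet2 differed to a like degree (-1.95 ± 0.12, -2.08 ± 0.12 and -1.71 ± 0.11), from 49.3 to 69.2 CPM in input_TH and from 12.8 to 21.5 CPM in input_SYN. Within single mice at 5m, the difference of the pellets ran from -3.52 to -1.62. The lowest pellet value, 4.81 CPM, is that of mouse 191.

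The other oxidases were called lower in the synaptosomal pellet at 3w and 5m. Tet3 differed by -0.73 at 3w and -0.62 at 5m, and Tet1 by -0.45 and -0.75, all called. With trends on GC content and exonic length removed, the Tet1 values were -0.04 and -0.40. At 18m the values of Tet3 and Tet1 were -0.14 and -0.27, not called, or -0.43 and -0.22 with the trends removed. Dnmt1 was lower in SC_SYN at 3w (-0.41) and 5m (-0.38, or -0.60 with the trends removed). Its 18m value was -0.05, not called, or -0.24 with the trends removed. Uhrf2 was lower at all 3 ages (-0.63, -0.69 and -0.44), although the call at 18m was lost without 195, 196 or 197 (-0.63 to -0.3). Dnmt3a showed no called difference in the pellets at 3w (0.04, or -0.50 with library size) and was lower in SC_SYN at 5m (-0.60) and 18m (-0.32, or -0.55 with the trends removed).

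Mbd2 went the other way. In the input it was higher in synaptosomes at all 3 ages: input_TH libraries ran from 14.5 to 19.2 CPM and input_SYN libraries from 23.7 to 36.8 CPM. The log2 differences were 0.88 ± 0.13 at 3w, 0.77 at 5m and 0.86 at 18m, and stayed above 0 with library size (0.30, 0.11 and 0.29). In the pellets Mbd2 was called higher in SC_SYN at 18m (0.50 ± 0.14), a call lost without mouse 198 (0.36), and the value was -0.02 with library size. At 3w and 5m it was 0.18 and 0.17, or -0.36 and -0.41 with library size. Relative to the median of all genes, the 3 pellet values were 0.22, 0.26 and 0.57 for 3w, 5m and 18m. With trends on GC content and exonic length removed they were -0.13, -0.17 and 0.37. Mbd2 has the shortest exonic length of the set, 3.214 kb.

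For the remaining genes in the input, Uhrf2 was lower in synaptosomes at each age (-0.96 ± 0.12, -0.81 and -0.56). Dnmt3a was higher at 3w (0.33 ± 0.071, or -0.24 with library size) and lower at 5m (-0.51) and 18m (-0.59). Tet1 was called lower at 5m (-0.60, or -0.15 with the trends removed) and 18m (-0.49, lost without mouse 195, with values of -0.59 to -0.35), and was at -0.23 at 3w. Tet3 was called lower at 5m (-0.24, lost without 191, 192 or 193, with values of -0.29 to -0.19) and 18m (-0.36), and was at -0.19 at 3w, a value that was called with the mouse as a block (-0.19 ± 0.082). Dnmt1 was not called at any age (-0.09, -0.16 and 0.03, the last of which was -0.54 with library size).

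In the pellets 5 of 7 genes were called at 3w (63.5% of all tested genes), 6 at 5m (67.8%) and 4 at 18m (62.1%), and in the input 4 at 3w (71.0%), 6 at 5m (72.7%) and 6 at 18m (72.3%). Most expressed genes thus differed between synaptosomes and homogenate. All 6 nuclear transcripts were lower in synaptosomes except for 1 in the 18m pellets, with medians of -3.74, -3.07 and -2.46 in the pellets and -3.38, -3.14 and -3.38 in the input. All or nearly all microglial markers were higher in synaptosomes (5, 6 and 6 of 6 in the pellets, medians 1.04, 1.40 and 1.28). So were all 6 astrocyte markers (pellet medians 1.41, 1.46 and 1.39) and 6, 5 and 5 of 6 oligodendrocyte markers in the pellets. In the 18m pellets 1 oligodendrocyte marker was called lower. In the input 3 of 6 were called higher at each age, and 3 were called lower at 18m (median 0.05). The list of 5 neuronal markers was mixed. In the pellets 2, 1 and 2 were called higher and 3 lower at each age. In the input 3 were called higher at each age, and 1, 1 and 0 lower. All 5 endothelial markers were lower (pellet medians -2.29, -2.89 and -2.10), as were all 5 of erythrocytes (-3.25, -3.07 and -3.65). The part of nuclear RNA and of these cells in the values of the 7 genes was not tested.

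**Figure D3:**
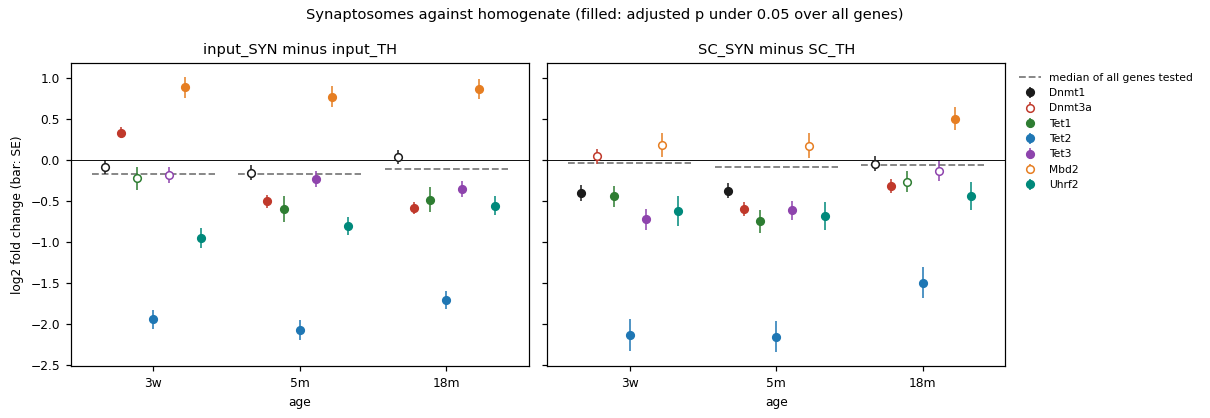
Log2 difference of SYN minus TH for each gene at 3w, 5m and 18m, for the input libraries and the ribosome pellets, with bars of 1 standard error. Tet2 lies between -2.16 and -1.50 throughout, and Mbd2 in the input lies between 0.77 and 0.88.

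Whether the step from 3w to 5m differed between synaptosomes and homogenate was fitted as an interaction. For Dnmt3a in the input, the difference of the changes (SYN minus TH) was -0.84 ± 0.10, called as 1 of 4 genes of 17860 (0.0224%), and it was kept without any 1 of the 8 mice (-0.87 to -0.80). In the pellets the Dnmt3a term was -0.64 ± 0.12 and was not called, nor was any other gene of the set (0.0301% of all tested genes, with 1324 genes at an unadjusted p under 0.05). It was called with DESeq2, with library size and in the fit of all 48 libraries. From 5m to 18m, 0 of 7 genes were called in the input (2.42% of all, 3169 genes at an unadjusted p under 0.05) and 0 of 7 in the pellets (0.0% of all, 2855 genes). The pellet terms were 0.66 ± 0.26 for Tet2, 0.48 for Tet1 and Tet3 and 0.34 for Dnmt1. The smaller differences of Tet2, Tet1, Tet3 and Dnmt1 at 18m were thus not called as changes with age.

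The third comparison sets the ribosome pellet against its input, the ratio taken as translational efficiency within a compartment. In the homogenate, each called difference of Dnmt1, Mbd2 and Uhrf2 was higher in the pellet and each of the Tet genes and Dnmt3a lower. Dnmt1 was higher at all 3 ages (0.29, 0.37 and 0.25). Its libraries ran from 50.5 to 59.1 CPM in input_TH and from 62.5 to 69.5 CPM in SC_TH, without overlap at any age. Mbd2 was higher by 0.66 ± 0.12 at 3w, 0.35 at 5m and 0.25 at 18m, the last lost without 195, 196 or 197 (0.14 to 0.37), and overlapped with the input at 5m and 18m. Uhrf2 was higher at 3w (0.32, lost without 190) and 18m (0.29, lost without 195), with values of 0.28 to 0.35 and 0.23 to 0.34. It was at 0.19 at 5m and was called with the mouse as a block (0.18 ± 0.078).

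Tet1 was lower in the homogenate pellet by -0.24, -0.73 ± 0.11 and -0.49 at 3w, 5m and 18m. The call at 3w was lost with the mouse as a block (-0.24 ± 0.11), and without 187, 189 or 190 (-0.38 to -0.17). Tet2 was lower at 5m (-0.27) and 18m (-0.23, lost without 195 or 198, with values of -0.28 to -0.17), and at 3w was at -0.08. Tet3 was lower at 18m (-0.49). At 3w and 5m it was at -0.08 and -0.14, and the latter was called with the mouse as a block (-0.14 ± 0.059). Dnmt3a was at 0.08 at 3w, and lower at 5m (-0.29) and at 18m (-0.60 ± 0.068). With the trends on GC content and length removed, Dnmt3a was at -0.16 and -0.39 at 5m and 18m, Tet2 at -0.08 and -0.10, and Tet3 at -0.26 at 18m. These counts were 4 of 7 genes at 3w (52.8% of all tested genes), 5 at 5m (62.1%) and 7 at 18m (64.0%). Of the 6 nuclear transcripts, 5, 6 and 6 were called lower in the homogenate pellet at 3w, 5m and 18m, with medians of -0.65, -1.21 and -1.68, and their part in the result was not tested.

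In synaptosomes the called genes were lower in the pellet without exception. Tet3 was lower at 3w (-0.69 ± 0.15) and at 5m (-0.56, lost without 191, with values of -0.66 to -0.5), with 88.9 to 117 CPM in SC_SYN against 150 to 181 CPM in input_SYN at 3w. Tet1 was lower at 3w (-0.54, lost without 187, 189 or 190, with values of -0.69 to -0.41) and at 5m (-0.95 ± 0.19). Dnmt3a was lower at 3w (-0.29, or -0.08 with the trends removed, and lost without 187, 189 or 190, with values of -0.35 to -0.23), at 5m (-0.42) and at 18m (-0.36, lost without 197, with values of -0.4 to -0.34). Tet2 (-0.35, -0.40 and -0.08), Dnmt1 (-0.12, 0.09 and 0.14), Mbd2 (-0.11, -0.28 and -0.16) and Uhrf2 (0.57, 0.26 and 0.37) were not called. The counts were 3 of 7 genes at 3w (18.5% of all), 3 at 5m (20.0%) and 1 at 18m (12.6%). Of the 6 nuclear transcripts, 4 were called lower in the synaptosomal pellet at 3w (median -1.05), 4 at 5m (-0.84) and 1 at 18m (-0.45), and their part in the result was not tested.

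**Figure D4:**
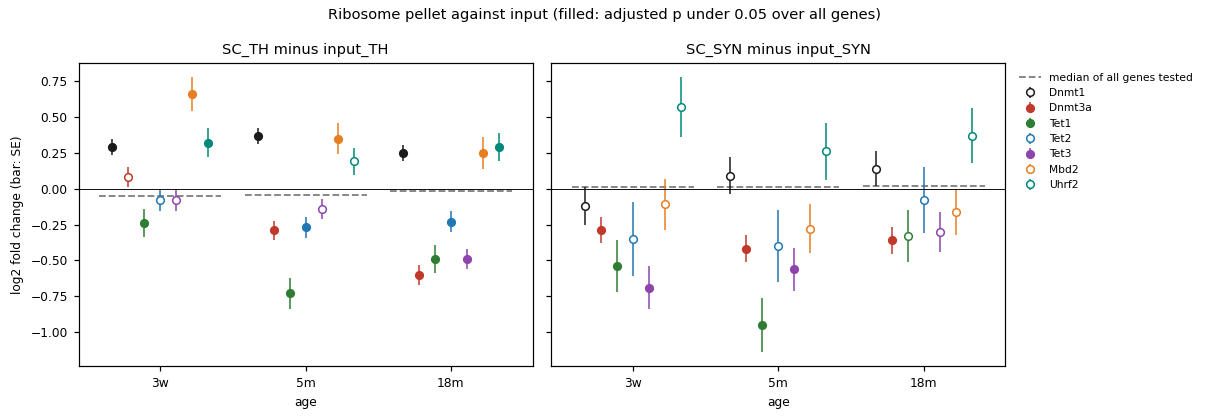
Log2 difference of ribosome pellet minus input for each gene at 3 ages, in total homogenate and in synaptosomes, with bars of 1 standard error. In the homogenate Dnmt1 lies between 0.25 and 0.37 and Dnmt3a moves from 0.08 at 3w to -0.60 at 18m.

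A change of this ratio with age was called for Dnmt3a in the homogenate between 3w and 5m (-0.37 ± 0.096), where 2.35% of all tested genes were called. The call was lost without 187, 188, 190, 191 or 194, with values of -0.4 to -0.27. The Tet1 term of -0.49 ± 0.15 was not called. From 5m to 18m the terms were -0.35 for Tet3 and -0.31 for Dnmt3a and 0 of 7 genes were called (1.78% of all, 3137 genes at an unadjusted p under 0.05). With the mouse as a block Tet3 was called (-0.35 ± 0.083). In synaptosomes 0 of 7 genes were called at either step, as were 0.0% and 0.0% of all genes, with 474 and 393 genes at an unadjusted p under 0.05.

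Genes with the most similar pattern were sought by the Pearson correlation of log2 CPM over the 48 libraries among 13119 genes. The libraries share mice, depth and a common scale, and the values are a description. They also fall into groups of fraction and age, whose differences enter the correlations. Dnmt3a was closest to Nrep (0.899), Tet1 (0.893) and Nav3 (0.89), and Tet1 to Sh3gl3 (0.926), Ick (0.897) and Dnmt3a (0.893). Dnmt3a and Tet1 were thus each among the 3 nearest genes of the other. Tet2 was closest to Hook1 (0.974), Nktr (0.972) and Setd5 (0.972), and Uhrf2 to Ddx17 (0.939), Safb (0.926) and Gripap1 (0.92). Mbd2 was closest to the ribosomal protein genes Rps16 (0.897) and Rpl23 (0.897) and to the potassium channel gene Kcna4 (0.892). Tet3 (Nav1, 0.838) and Dnmt1 (Rab3gap2, 0.872) had less similar neighbours. With Spearman's correlation none of the 3 nearest genes was shared for Tet2 and for Mbd2, while all 3 were shared for Dnmt3a and Tet1. For Tet3 and Uhrf2 1 of 3 was shared, and for Dnmt1 2 of 3.

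The other genes of DNA methylation were taken as 5 lists of 55 genes written from knowledge of the pathway. Of 53 tested in input_TH, 2 rose and 4 fell between 3w and 5m (11.3% called, against 11.8% of all genes), and 3 rose and 5 fell between 5m and 18m (15.1% against 15.5%). In SC_TH 2 of 50 rose and 2 fell at the first step (8.0% against 18.0%), and in SC_SYN 3 of 48 rose and 2 fell (10.4% against 8.05%). In input_SYN 1 of 44 rose and 1 fell (4.55% against 3.22%). Between 5m and 18m none was called in SC_TH, input_SYN or SC_SYN. Pooled over the 8 age comparisons, 19 of the 53 list genes tested were called at least once, against 35.6% of all genes tested at least once, and 16 of the 44 tested in every fraction, against 42.3% of all such genes. These shares are a description, and their differences were not tested.

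Tdg, the glycosylase that removes the bases made by Tet enzymes, fell between 3w and 5m in all 4 fractions. Its level in SC_SYN was 32.9 ± 2.45 CPM (SD, n = 4) at 3w and 16.3 ± 0.917 CPM at 5m. Its log2 fold changes were -0.54 ± 0.062 in input_TH, -0.66 ± 0.093 in SC_TH, -0.81 ± 0.16 in input_SYN and -1.05 ± 0.12 in SC_SYN, with edgeR adjusted p-values of 2.14e-05, 0.000221, 0.00771 and 0.000114. Among oxidation and base excision genes, 5 of 13 were called in at least 1 of the 8 age comparisons (35.6% of all genes). Gadd45g, of a family linked to demethylation, rose in SC_SYN at 5m (0.99 ± 0.26, edgeR adjusted p = 0.0324), and Gadd45b fell in input_TH at 18m (-0.43 ± 0.13, edgeR adjusted p = 0.0387). The call of Gadd45g was lost without 188, 189, 190, 192 or 193 (0.83 to 1.14). That of Gadd45b was lost with DESeq2 and without 191, 192, 193, 195, 196 or 198 (-0.54 to -0.38).

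Of the genes listed as readers, 6 of 9 were called in at least 1 of the 8 age comparisons, and no more than 2 of 9 in any 1 of them. The list took in Mbd3, Mbd5 and Mbd6, and binding of methylated DNA by each listed gene was not examined. All 9 were tested in every fraction, where 42.3% of such genes were called at least once. Zbtb4, a zinc finger protein that binds methylated CpG, rose between 3w and 5m in SC_SYN (0.73 ± 0.12, edgeR adjusted p = 0.00232), input_SYN (0.50 ± 0.10, edgeR adjusted p = 0.0111) and input_TH (0.29 ± 0.061, edgeR adjusted p = 0.00416). Mbd6 rose in SC_SYN at the same step (1.08 ± 0.27, edgeR adjusted p = 0.0263, lost without 188, 189, 193 or 194, with values of 0.93 to 1.24). Mbd3, the NuRD subunit of the same domain family as Mbd2, rose in input_TH between 5m and 18m (0.50 ± 0.093, edgeR adjusted p = 0.00423).

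Of the NuRD complex, 4 of 12 genes were called in at least 1 of the 8 age comparisons (42.3% of all genes tested in every fraction). Its remodelling subunit Chd3 fell between 3w and 5m in input_TH (-0.29 ± 0.053, edgeR adjusted p = 0.00165) and in SC_TH (-0.31 ± 0.086, edgeR adjusted p = 0.0213). Chd5, the neuronal paralogue, rose in input_TH between 5m and 18m (0.22 ± 0.06, edgeR adjusted p = 0.0226), and the histone-binding Rbbp7 fell (-0.21 ± 0.061, edgeR adjusted p = 0.0272). The call of Chd3 in SC_TH was lost without 187, 188, 191 or 194 (-0.37 to -0.24). Those of Chd5 and Rbbp7 were lost without 193, 196 or 198 (0.17 to 0.27), and for Rbbp7 also without 192 or 194 (-0.25 to -0.18). Of the methyl donor cycle, 1 of 11 was called in any of the 8 (35.6% of all genes): Mat2a, which makes S-adenosylmethionine, fell in input_TH between 5m and 18m (-0.33 ± 0.058, edgeR adjusted p = 0.00296).

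Of the 10 maintenance and de novo partners, 8 were tested and 3 were called in at least 1 of the 8 age comparisons (35.6% of all genes). Uhrf1, the partner of Dnmt1 at replicated DNA, fell in SC_SYN from 3.63 to 1.18 CPM between 3w and 5m (-1.61 ± 0.36, edgeR adjusted p = 0.015), on at most 26 counts in a library, and the call was lost without 189 (-1.88 to -1.36 over the 8 fits). Cdca7 fell in input_TH at that step (-0.74 ± 0.23, edgeR adjusted p = 0.045) and Dmap1 rose between 5m and 18m (0.23 ± 0.072, edgeR adjusted p = 0.0403); both calls were lost with DESeq2 and with library size. They were also lost without 188, 189, 191, 192 or 194 for Cdca7 (-0.9 to -0.61) and without 192, 193, 194, 195, 196 or 198 for Dmap1 (0.21 to 0.27). Dnmt3b reached at most 19 counts in a library and Dnmt3l at most 3, and Dppa3 had 0 counts in all 48.

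**Figure D5:**
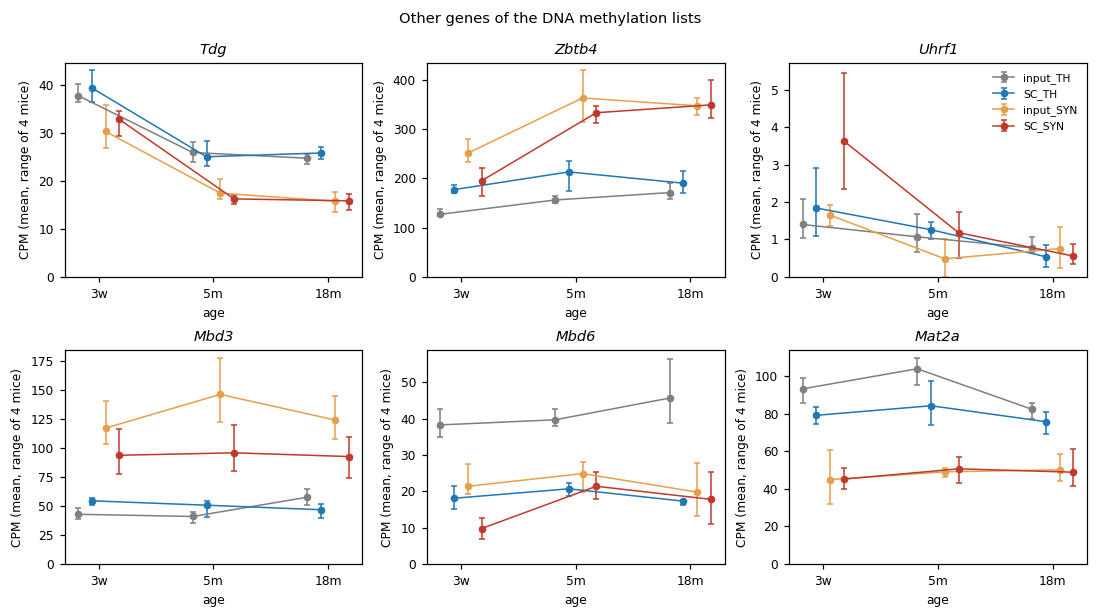
Mean level in CPM of Tdg, Zbtb4, Uhrf1, Mbd3, Mbd6 and Mat2a from the other lists in each fraction and age. Bars run from the lowest to the highest of 4 mice. The remaining named list genes are not drawn. Tdg is lower at 5m than at 3w in all 4 fractions, and Zbtb4 is higher at 5m in SC_SYN.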

How the data were processed

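RNA from 4 fractions of the cortex of 12 mice was sequenced from rRNA-depleted directional libraries with UMI adaptors. The authors aligned reads to GRCm38 with TopHat2 2.1 and deposited raw featureCounts counts per Ensembl gene, without strand, after bcl2fastq 2.20.0.422. Use of the UMIs and the sequencing run of each library are not given in the sources used here. Of 48526 genes, 48144 matched the annotation by identifier, and 0 columns were unused. Groups came from the sample labels.

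From the deposited counts, edgeR 4.0.16 (R 4.3.3) was run with TMM, filterByExpr and its quasi-likelihood test, with Benjamini-Hochberg adjustment over all tested genes and a threshold of 0.05. Age was fitted within each fraction of 12 libraries; compartments and pellet against input were fitted over 24 libraries. The fits were tested on simulated counts with the same spread for every gene, no mouse effect and larger changes than most called here. That test does not cover smaller changes or fractions that share a mouse. Levels are CPM, and correlations used log2 CPM with a prior count of 2. Alternatives were DESeq2 1.42.0, library size, other filters, other sets of libraries, the mouse as a block and each mouse left out. Fractions of one mouse share the animal, so its number pairs them. Deviations from group means of same-mouse libraries correlated with medians of -0.0281 to 0.123 over the 6 pairs of fractions. Replicates are separate mice, and no pair of libraries agreed within sampling noise.

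The 7 genes and the lists were chosen with earlier results of these data known. The lists were written from knowledge of the pathway, without looking at the values of their genes. The rule named all 7, up to 3 called genes per other list by size of change, and the 3 nearest genes of each by correlation.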

Additional observations from a re-analysis of the deposited data

Results flagged for a closer look

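Among 84 groups of 4 mice (7 genes in 12 groups), 5 had 1 mouse whose gap to the others, as a share of the range, exceeded Dixon's critical value, and chance gives about 1 in 20, or 4.2. Dnmt1 in SC_SYN at 18m was 71.9 CPM in mouse 195 against 60.0 to 61.8 in the others (0.851). Tet1 in input_SYN at 5m was 18.8 CPM in mouse 193 against 10.8 to 12.0 (0.847). Mbd2 in input_TH at 5m was 18.5 CPM in mouse 193 against 17.2 to 17.4 (0.838). Mbd2 in SC_SYN at 18m was 33.6 CPM in mouse 198 against 26.8 to 27.3 (0.924). Uhrf2 in SC_SYN at 5m was 24.0 CPM in mouse 193 against 32.3 to 33.0 (0.922).

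The change of Dnmt3a from 3w to 5m differed between synaptosomal and homogenate input by -0.84 on the log2 scale, and between pellet and input of the homogenate by -0.37, by the interaction terms of the edgeR fits. The -0.84 term kept its call without any 1 of the 8 mice. That of -0.37 lost it without 187, 188, 190, 191 or 194. It also lost it in the fit of all 48 libraries and without the filter on low counts.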

How the results depend on the processing

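The 72 called fold changes of the 7 genes were recomputed in 864 alternatives. Of these, 746 moved by less than their standard error, 116 moved by more with the same sign and 2 changed sign, both with library size: Mbd2 in the pellets at 18m (-0.02) and Dnmt3a in the input at 3w (-0.24). Of 130 alternatives for named genes of the other lists, 44 lost the call and 0 changed sign. Of 84 levels per kb, 69 moved by more than their SD with library size, and scaling leaves orders within a library as they are.

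With all 48 libraries in one fit, 0 of the 7 genes were called in input_TH from 5m to 18m, 1 (Dnmt1) in SC_SYN from 5m to 18m, 2 and 4 in pellet over input of the homogenate at 3w and 18m, and 0 in its change from 3w to 5m. For that change, 2 were called with DESeq2, 0 without the filter on low counts and 2 with at least 10 counts in every library. For the next step, 5m to 18m, 2 were called with DESeq2, 2 with at least 10 counts and 1 with the mouse as a replicate block. The pellet interaction of SYN and TH from 3w to 5m gave 1 (Dnmt3a) with DESeq2, with library size and with all 48 libraries. SYN against TH in the input at 3w gave 7 with library size. Pellet over input of synaptosomes at 18m gave 0 without the filter. DESeq2 called 1 list gene each in SC_TH and SC_SYN from 5m to 18m.

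With each mouse left out in turn, the number of the 7 genes called ran, for 3w to 5m and 5m to 18m, from 2 to 3 and 2 to 4 in input_TH, 2 to 3 and 1 to 2 in SC_TH, 1 to 2 and 0 to 0 in input_SYN, and 2 to 2 and 0 to 0 in SC_SYN. For SYN against TH at 3w, 5m and 18m it ran from 5 to 5, 6 to 6 and 3 to 4 in the pellets, with 0 to 0 for both interactions, and from 4 to 4, 5 to 6 and 5 to 6 in the input, with 1 to 1 and 0 to 0. For pellet over input it ran from 1 to 3, 2 to 3 and 0 to 1 in synaptosomes, with 0 to 0 for both interactions, and from 2 to 4, 5 to 6 and 4 to 6 in the homogenate, with 0 to 2 for both. List genes called ran from 4 to 5 and 3 to 14 in input_TH, 2 to 7 and 0 to 2 in SC_TH, 2 to 2 and 0 to 0 in input_SYN, and 2 to 5 and 0 to 0 in SC_SYN.

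Removing trends of fold change with GC content and length was an alternative chosen after seeing the data. Of the 72 called values, 12 moved by over 1.5 times and 0 changed sign. These are given beside their results: Tet1 in 4 comparisons, Dnmt3a in 4, Tet2 in 2 and Tet3 and Dnmt1 in 1 each. From 3w to 5m the values in input_TH, SC_TH, input_SYN and SC_SYN were -0.51, -0.90, -1.43 and -1.69 for Dnmt3a and -0.65, -0.99, -0.96 and -1.35 for Tet1. The mouse as a block changed the calls named in the text and no other call of the 7 genes. The cause of each move was not tested. The lowest median depth was that of input_SYN, 3756951 counts per library.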
